A study of Arabidopsis thaliana with 7 samples.

Results

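The R2R3-MYB transcription factors examined here were the Arabidopsis genes whose RefSeq symbol is MYB followed by digits only, without those that the selection rule leaves out by number. These are mainly regulators of the cuticle and of the glucosinolate, flavonol and anthocyanin pathways, with MYB5 and MYB23, which act in trichomes and the seed coat. Of the genes with such a symbol, 19 were left out and 96 remained, among 25347 genes that the array's named probes reached. The rule itself used gene names and no measured value, but members, role groups and lists were chosen with earlier results of these data known. Relatives that RefSeq lists under another symbol, such as FLP, MYBR1, HOS10, RAX2, TDF1, LAF1 and TT2, fell outside it.

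R2R3-MYB proteins bind DNA through a pair of adjacent MYB repeats at their start, and the remainder of each protein, which differs between subgroups, activates or represses transcription. In plants the family has expanded greatly, and its members control phenylpropanoid synthesis, wall thickening, suberin deposition, cell fate in the epidermis, responses to drought and hormones, and the development of anthers and seeds. Several act only together with bHLH proteins and the WD40 protein TTG1, and some repress the very pathways that others switch on.

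The study measured total RNA of whole seedlings of Arabidopsis thaliana, ecotype Columbia-0, at 3 weeks on agar with sucrose, by single-colour Agilent arrays. The tested plants carried 35S:MYB106VP16 (4 arrays), in which the constitutive 35S promoter drives MYB106, a MIXTA-like R2R3-MYB of the epidermis, fused to the VP16 activation domain of a herpes virus. Wild-type seedlings of the same ecotype and age (3 arrays) were the control. As the promoter is active in most cell types and VP16 turns its carrier into a strong activator, the transgenic seedlings are a model of forced activation in the whole plant. The labels state neither the number of transgenic lines nor whether the samples were grown separately, and each RNA came from several seedlings of a plate, so the p-values reflect how far these samples varied and no more, and that variation may be technical.

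Levels are given as a percentage of the 75th percentile of the signal on the same array, so they compare the same probe between arrays and never different genes. A gene entered the test if at least 3 of the 7 arrays measured its probe well above background, and it was called where the limma test gave a Benjamini-Hochberg adjusted p below 0.05 over all 20509 genes tested. The 75th percentile itself ranged from 2213 to 2858 signal units among transgenic arrays and from 2492 to 2677 among wild-type ones, and each array detected between 73.5% and 76.3% of its probes. MYB106, the gene of the transgene, stood at 591% to 1114% in 35S:MYB106VP16 and at 13.8% to 18.8% in wild type, 52.1-fold higher. Each slide carried a single genotype, so slide and genotype cannot be told apart in any result here. All 3 leaf mesophyll markers and all 5 root markers were well above background on every array. Of 5 floral organ markers 4 to 5 were detected on each transgenic array and 5 on each wild-type array.

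Of the 96 members, 70 were tested. Of these, 16 were higher in 35S:MYB106VP16 than in wild type, 22 were lower and 32 were not called. Called members made up 54.3% of those tested, against 52.9% of all genes. By direction, 22.9% of members were higher against 28.1% of all genes, and 31.4% were lower against 24.8%. Among changes of at least 2-fold, 11 members were higher, 15.7% against 5.77% of all genes, and 6 were lower, 8.57% against 4.72%. The median log2 change was 0.06 over the members and 0.02 over all genes, while the median size of change, whatever its sign, was 0.55 against 0.34. Every value of 1 genotype lay above every value of the other for 16 members that were higher (30.4% of all genes) and for 22 that were lower (27.2% of all genes), 57.6% of all genes in either direction. These are not quite the called members: MYB58 and MYB62 were called although their values overlapped, and MYB2 and MYB45 separated the genotypes without a call. The calls, those of at least 2-fold among them, include MYB39 and MYB89, which were detected in 1 genotype only. That entry set their direction, and the bound given below for MYB89 is under 2-fold. Among the 64 members well above background on all 7 arrays, 15 were higher and 21 were lower. The split between directions moved with the scaling of the arrays: 42.1% of called members were higher with the 75th percentile, 56.1% with each array's median, 66.7% in the authors' deposited table and 19.6% with the spike-in transcripts, with the median log2 change of all genes at 0.02, 0.14, 0.23 and -0.57 in the same order. Directions below are therefore relative to the bulk of genes on an array, and those that flipped are named. Normexp background correction, another way to handle dim spots, kept the direction but gave smaller log2 changes for several dim genes described below: 0.68 for MYB27, 0.87 for MYB31, 0.76 for MYB78, 0.59 for MYB40, -0.51 for MYB42, -1.85 for MYB47, -0.83 for VND6, -0.62 for TT8 and -1.37 for CP1.

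**Figure D1:**
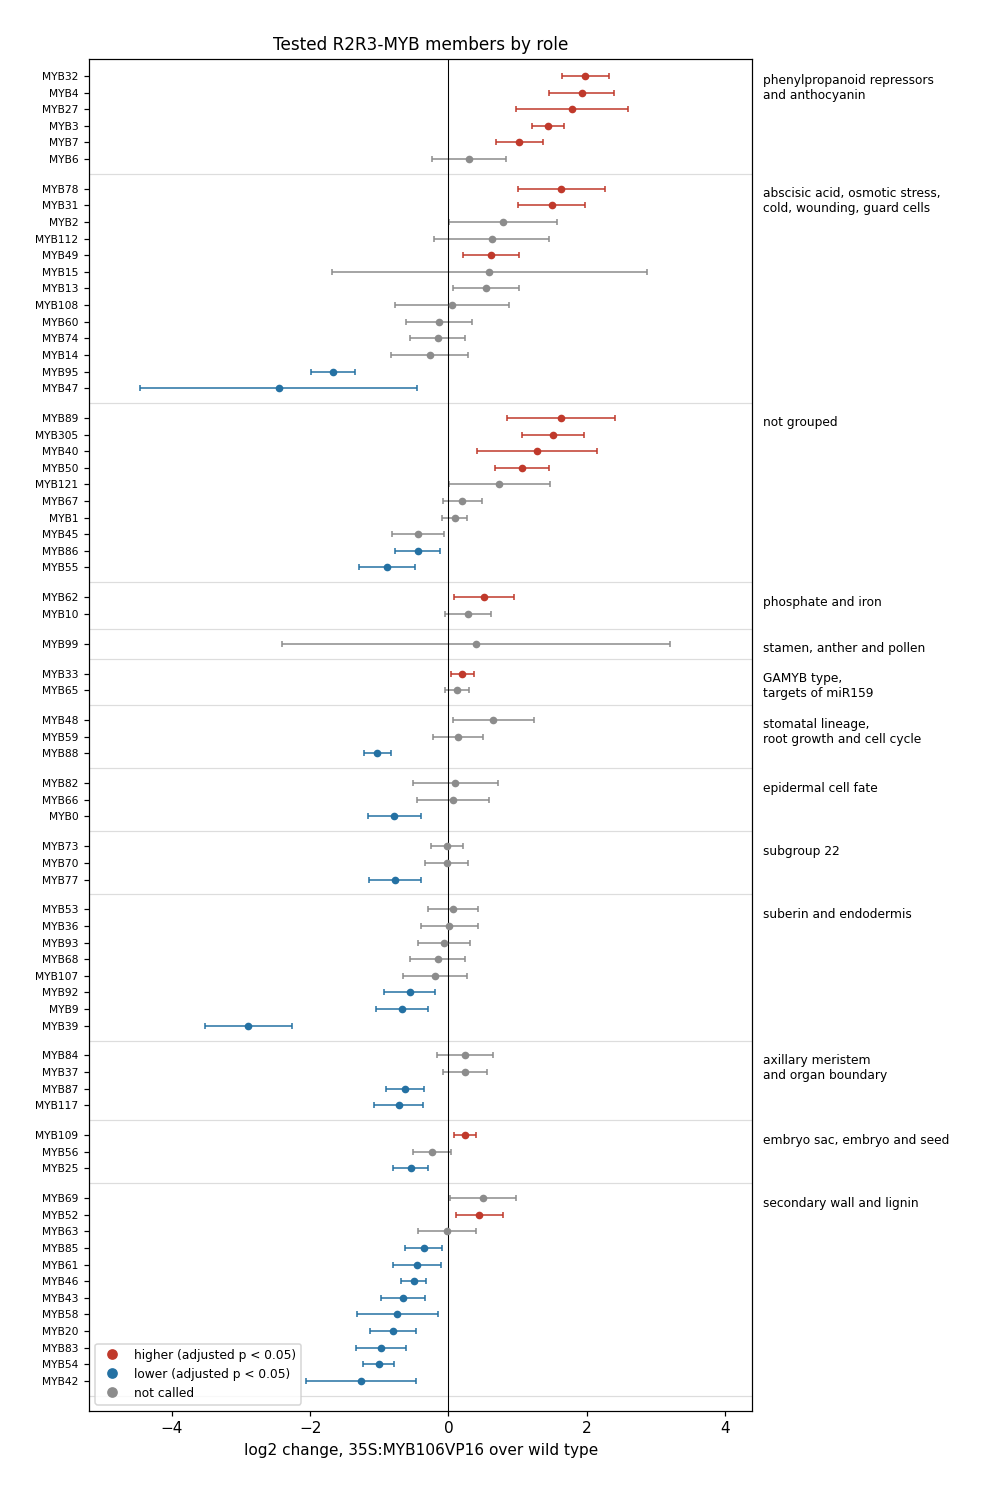
Log2 change of the 70 tested members, 35S:MYB106VP16 over wild type, grouped by role. Points are the limma estimates, bars their 95% intervals, and colour marks the call at an adjusted p of 0.05; in the group of phenylpropanoid repressors 5 of 6 members lie to the right of 0 and are called, and in the wall group 9 of 12 lie to the left and are called.

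Most tested genes grouped with the repressors of phenylpropanoid synthesis were higher in the transgenic seedlings. This group holds the subgroup 4 members MYB3, MYB4, MYB6, MYB7 and MYB32, with MYB27 and the anthocyanin activators MYB113 and MYB114. Of 6 tested genes 5 were higher and none was lower, 83.3% higher against 28.1% of all genes, with a median log2 change of 1.62 against 0.02 over all genes, while MYB113 and MYB114 were not well above background on any array. The same 5 genes were higher under each other scaling and background correction and without each array in turn, and the test against 1.5-fold left 3 higher.

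MYB32 (AT4G34990), a repressor linked to lignin genes and pollen wall formation, stood at 194%, 204%, 255% and 178% in 35S:MYB106VP16, against 61.04%, 47.9% and 48.4% in wild type. Its log2 change of 1.98 ± 0.15 (SE), 3.95-fold higher (adjusted p = 0.000147), was the largest rise among the tested members. MYB4 (AT4G38620), which represses the cinnamate 4-hydroxylase gene and limits sinapate ester sunscreens, stood at 416%, 480.1%, 701% and 384% in 35S:MYB106VP16, against 138%, 123% and 118.9% in wild type. In both genes every transgenic value lay far above every wild-type value, and MYB4 was 3.81-fold higher (adjusted p = 0.000398).

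MYB3 (AT1G22640), another repressor of cinnamate 4-hydroxylase, stood at 649%, 801%, 849% and 749% in 35S:MYB106VP16, against 284%, 281% and 272% in wild type, 2.72-fold higher (log2 1.44 ± 0.10 SE, adjusted p = 0.000128). MYB27 (AT3G53200), whose petunia namesake represses anthocyanin synthesis, had lower and more variable values, 2.56%, 3.62%, 1.75% and 4.82% in 35S:MYB106VP16 against 0.748%, 1.16% and 0.726% in wild type. It was 3.47-fold higher (adjusted p = 0.00436) without overlap between the genotypes. MYB7 (AT2G16720), a close relative of MYB32, was 2.04-fold higher (log2 1.03 ± 0.15 SE, adjusted p = 0.00124) at its brighter probe. The other MYB7 probe gave a log2 change of 0.19, which was not called. MYB6 (AT4G09460) was the exception of its subgroup, with 169%, 174%, 181% and 115.9% in 35S:MYB106VP16 against 92.5%, 153% and 149% in wild type; the genotypes overlapped and the log2 change of 0.30 ± 0.23 (SE) was not called.

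**Figure D2:**
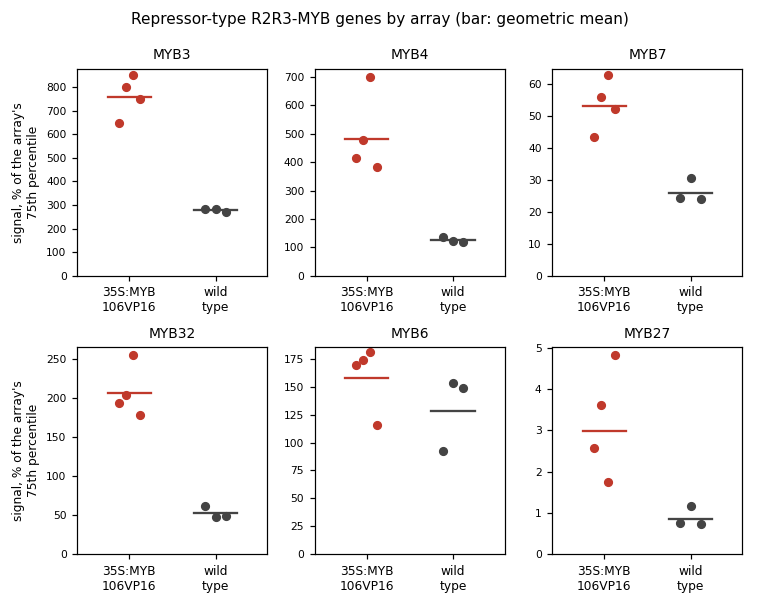
Signal of MYB3, MYB4, MYB7, MYB32, MYB6 and MYB27 on each array, as a percentage of the array's 75th percentile on a linear axis. In each panel 35S:MYB106VP16 is left of wild type. Points are arrays and bars geometric means; the genotypes separate in every panel but that of MYB6.

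The regulators of secondary wall thickening and lignin went the other way. Of 12 tested members 9 were lower in 35S:MYB106VP16, 1 was higher and 2 were not called, 75% lower against 24.8% of all genes, with a median log2 change of -0.58. Without 35S:MYB106VP16 replicates 1 or 3 or wild-type replicate 1, 6 were lower, with median scaling also 6, and the test against 1.5-fold left 1 lower and 0 higher. Normexp background correction gave 7 lower and 0 higher, with a smaller median log2 change of -0.27. Spike-in scaling gave 10 lower and 0 higher, with a median of -1.17. MYB46 and MYB83, which jointly switch on cellulose, xylan and lignin genes in vessels and fibres, were both lower. MYB83 (AT3G08500) stood at 1.29%, 1.47%, 1.72% and 1.95% in 35S:MYB106VP16, against 3.19%, 2.77% and 3.48% in wild type, 1.97-fold lower (log2 -0.98 ± 0.15 SE, adjusted p = 0.00187). MYB46 (AT5G12870) stood at 5.30%, 5.04%, 5.39% and 5.85% in 35S:MYB106VP16, against 8.13%, 7.44% and 7.36% in wild type, 1.42-fold lower (adjusted p = 0.0018). Neither gene's values overlapped between the genotypes.

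Genes that act below this pair were also lower. MYB54 (AT1G73410), which promotes wall thickening, had nearly constant values in 35S:MYB106VP16, 1.76%, 1.74%, 1.78% and 1.74%, against 3.56%, 4.01% and 3.08% in wild type, 2.01-fold lower (log2 -1.01 ± 0.10 SE, adjusted p = 0.000305). MYB20 (AT1G66230), MYB42 (AT4G12350) and MYB43 (AT5G16600), which together activate lignin and phenylalanine synthesis, were 1.74-fold, 2.40-fold and 1.58-fold lower, at adjusted p of 0.00322, 0.017 and 0.00623. The other MYB43 probe gave a log2 change of -0.47, which was not called (adjusted p = 0.0522). MYB42 was near the limit of detection, well above background on 2 of the 4 transgenic arrays, with 0.646%, 0.603%, 0.864% and 1.17% there against 3.17%, 1.63% and 1.33% in wild type.

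The lignin activators MYB58 (AT1G16490) and MYB85 (AT4G22680) and the broader xylem regulator MYB61 (AT1G09540) were lower too, but their calls depended on single arrays. MYB58 was 1.67-fold lower (adjusted p = 0.0401) with overlapping values, and the call was lost without any 1 of 35S:MYB106VP16 replicates 1, 2 and 3 and wild-type replicates 1 and 3 (adjusted p 0.0732 to 0.127). MYB61 was 1.37-fold lower (adjusted p = 0.0362), a call lost without any 1 of 35S:MYB106VP16 replicates 1, 3 and 4 and wild-type replicates 1 and 2 (0.0539 to 0.124). MYB85 was 1.28-fold lower (adjusted p = 0.0332), a call lost without any 1 of 35S:MYB106VP16 replicates 1 and 3 and wild-type replicates 1 and 3 (0.069 to 0.108). These 3 genes were also not called in the authors' deposited table, where MYB43 and MYB46 missed the threshold too, at adjusted p of 0.0574 and 0.0756, so that 4 wall members were lower there and 2 were higher.

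MYB52 (AT1G17950) was the wall member that was higher, 1.36-fold (adjusted p = 0.034), with 6.69%, 7.04%, 6.10% and 9.38% in 35S:MYB106VP16 against 5.31%, 5.50% and 5.07% in wild type. Its call was lost without any 1 of 35S:MYB106VP16 replicate 2 and the 3 wild-type replicates (adjusted p 0.0587 to 0.104), and its log2 change was -0.15 with spike-in scaling. MYB63, the close relative of MYB58, had a log2 change of -0.02, and MYB69 one of 0.50 at an adjusted p of 0.0711. MYB26, which thickens the anther endothecium, was not tested.

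The NAC switches above these MYB genes and the wall genes below them were read beside them. Among 7 wall regulators 4 were tested, of which 3 were lower and 1 was higher, against 24.8% and 28.1% of all genes. VND6, a switch of vessel formation, stood at 2.01%, 1.99%, 2.18% and 1.45% in 35S:MYB106VP16, against 5.64%, 5.92% and 5.94% in wild type, 3.09-fold lower (log2 -1.63 ± 0.14 SE, adjusted p = 0.000221). SND2, a NAC factor of fibre walls, was 2.02-fold lower (adjusted p = 0.00127) and VND7, the partner of VND6, 1.81-fold lower (adjusted p = 0.000677). KNAT7, a homeodomain factor known mainly as a repressor of wall genes, was 1.74-fold higher (adjusted p = 0.0164), a call lost without wild-type replicate 1 or 3 (0.0534 and 0.0521). The fibre switches SND1, NST1 and NST2 were not tested.

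Of 14 secondary wall genes 10 were lower and 1 was higher, against 24.8% and 28.1% of all genes. Their median log2 change was -0.64. XCP1, a protease of dying xylem vessels, stood at 132%, 135%, 153% and 149% in 35S:MYB106VP16, against 289%, 280.0% and 283% in wild type, 2.002-fold lower (adjusted p = 0.000168). The cellulose synthase genes of secondary walls, CESA4, CESA8 and CESA7, had log2 changes of -0.71, -0.58 and -0.31, all called, though CESA7 lost its call without wild-type replicate 1 or 3 (0.0541 and 0.0677). FRA8, a xylan synthesis gene, differed from its list: it stood at 153%, 219%, 225% and 160.5% in 35S:MYB106VP16, against 52.2%, 82.3% and 60.3% in wild type, 2.93-fold higher (log2 1.55 ± 0.20 SE, adjusted p = 0.000887). The 3 xylem markers XCP1, XCP2 and VND7, which also stand in these lists, were all lower, with a summed level of 352% to 444% in 35S:MYB106VP16 against 669% to 786% in wild type. In RNA of whole seedlings, fewer xylem cells and less RNA per xylem cell cannot be told apart, and the part of either in the MYB values was not tested.

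**Figure D3:**
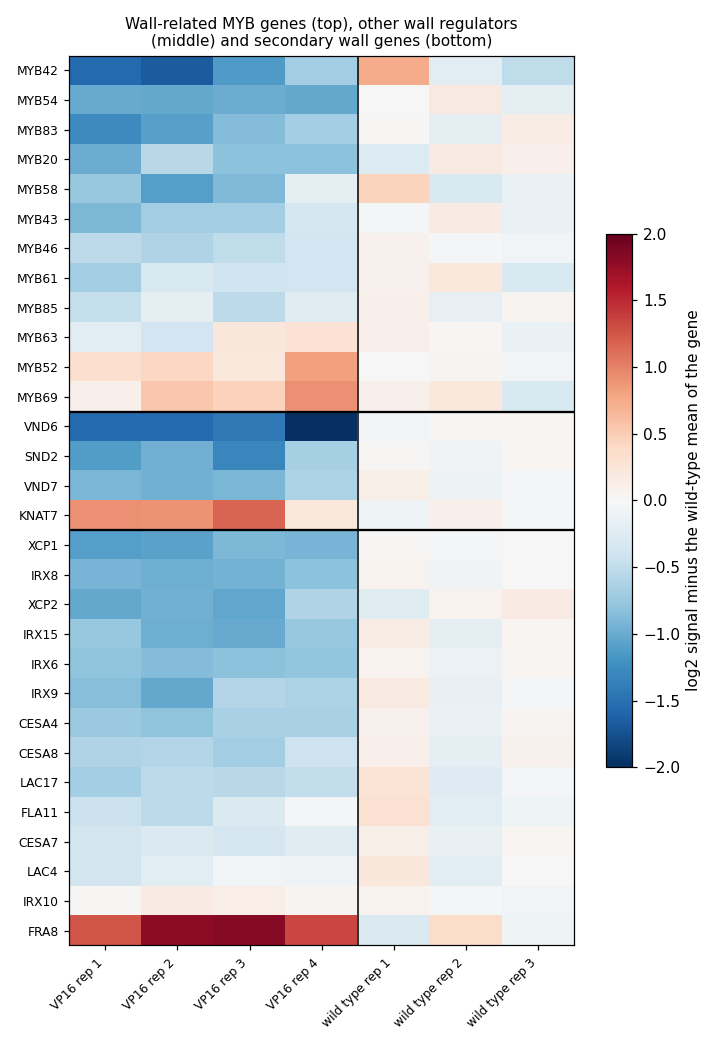
Wall-related MYB genes, other wall regulators and secondary wall genes on each array, with 35S:MYB106VP16 left of wild type. Colour is log2 signal minus the wild-type mean of the same gene. Most rows are below 0 on all 4 transgenic arrays, while FRA8, KNAT7, MYB52, MYB69 and IRX10 are above 0 there.

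Among close relatives of MYB61 the directions differed. MYB50 (AT1G57560) was 2.10-fold higher (log2 1.07 ± 0.17 SE, adjusted p = 0.00178), with 5.68%, 5.25%, 7.47% and 7.08% in 35S:MYB106VP16 against 3.27%, 3.38% and 2.44% in wild type. MYB55 (AT4G01680) was 1.86-fold lower (log2 -0.89 ± 0.17 SE, adjusted p = 0.00439), with 6.16%, 9.04%, 8.35% and 5.75% in 35S:MYB106VP16 against 12.99%, 14.7% and 12.5% in wild type. Neither overlapped between genotypes, but the other MYB50 probe gave a log2 change of -0.22, which was not called, and the mean of both probes one of 0.42. MYB86 (AT5G26660) was 1.36-fold lower (adjusted p = 0.0278), a call lost without any 1 of 35S:MYB106VP16 replicate 3 and wild-type replicates 1 and 2 (0.0502 to 0.089).

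Among regulators of suberin and of the endodermis no member was called higher. All 8 were tested, 3 were lower and 5 were not called, 37.5% lower against 24.8% of all genes, with a median log2 change of -0.18. The 3 include MYB39, detected in wild type alone. Among the 7 members well above background on all 7 arrays, which leave it out, 2 were lower. The group depended on the processing: 1 was lower with normexp background correction, 2 in the authors' deposited table, with the replicate block or without wild-type replicate 2, and 8 with spike-in scaling, and the median was 0.03 in the authors' deposited table and -0.77 with spike-in scaling. MYB39 (AT4G17785), known as SUBERMAN and an activator of suberin synthesis in the root endodermis, was not well above background on any transgenic array, with 0.158%, 0.196%, 0.128% and 0.130% there against 1.57%, 1.22% and 0.729% in wild type. It was at least 2.19-fold lower (adjusted p = 0.000294), where the bound sets the wild-type mean against the lowest signal still well above background on the transgenic arrays. As the gene entered the test through the wild-type arrays alone, its direction was set by that entry and the p adds no support. With normexp background correction the change was not called (adjusted p = 0.0532). MYB9 (AT5G16770), which promotes suberin in the seed coat, was 1.59-fold lower (adjusted p = 0.011), with 1.28%, 1.08%, 1.47% and 1.17% in 35S:MYB106VP16 against 1.76%, 2.52% and 1.75% in wild type. MYB92 (AT5G10280), an activator of suberin and fatty acid genes, was 1.47-fold lower (adjusted p = 0.0208), a call lost without wild-type replicate 2 (0.0635). MYB107, MYB53, MYB93, MYB68 and the Casparian strip regulator MYB36 had log2 changes of -0.20 to 0.06. The summed level of the 5 root markers was 230% to 349.8% in 35S:MYB106VP16 against 178% to 272% in wild type, with 3 of them higher and none lower. The higher ones were PRP3, EXPA7 and COBL9, with log2 changes of 2.06, 1.02 and 0.87. The endodermal CASP1 and TIP2;3 were not called, with log2 changes of 0.50 and -0.43. The part of root tissue in the MYB values was not tested.

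Of 13 tested members that respond to abscisic acid, osmotic stress, cold and wounding, or act in guard cells, 3 were higher, 2 were lower and 8 were not called. These shares, 23.1% and 15.4%, lay below those of all genes, 28.1% and 24.8%. The median log2 change of 0.55 depended on the wild-type arrays: it was 0.16 without wild-type replicate 1, -0.10 without replicate 3 and -0.04 with spike-in scaling. MYB78 (AT5G49620), a relative of the drought regulator MYB2, stood at 3.12%, 3.69%, 3.95% and 6.23% in 35S:MYB106VP16, against 1.26%, 1.79% and 1.02% in wild type, 3.11-fold higher (log2 1.64 ± 0.27 SE, adjusted p = 0.00225). MYB31 (AT1G74650), of the same subgroup as the wax regulators MYB30, MYB94 and MYB96, stood at 7.76%, 6.66%, 10.2% and 5.27% in 35S:MYB106VP16, against 2.61%, 2.74% and 2.39% in wild type, 2.82-fold higher (adjusted p = 0.00109). Both genes separated the genotypes, and the other MYB31 probe was higher as well, with a log2 change of 0.91. MYB49 (AT5G54230), a relative of MYB41, was 1.53-fold higher (adjusted p = 0.0205), a call lost without wild-type replicate 1 or 3 (0.0645 and 0.0789).

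MYB95 (AT1G74430) stood at 14.5%, 12.7%, 12.6% and 18.3% in 35S:MYB106VP16, against 46.7%, 44.98% and 45.6% in wild type, 3.19-fold lower (log2 -1.67 ± 0.14 SE, adjusted p = 0.000201). MYB47 (AT1G18710), linked to jasmonate signalling and seed longevity, was uneven among the transgenic arrays, with 8.91%, 7.57%, 1.22% and 22.3% in 35S:MYB106VP16 against 32.02%, 38.9% and 37.1% in wild type. All transgenic values lay below all wild-type values, and the gene was 5.48-fold lower (log2 -2.45 ± 0.86 SE, adjusted p = 0.0444). Its size and its call depended on single arrays: without 35S:MYB106VP16 replicate 3 the log2 change was -1.65, without replicate 4 it was -3.04, and the call was lost without any 1 of 35S:MYB106VP16 replicates 1 and 2 and the 3 wild-type replicates (adjusted p 0.0638 to 0.106).

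MYB15 (AT3G23250), which represses cold-induced CBF genes and activates lignin synthesis in immunity, was decided by 1 control array. It stood at 6.603%, 11.5%, 7.33% and 6.55% in 35S:MYB106VP16, against 2.10%, 35.2% and 1.86% in wild type, and its log2 change of 0.59 ± 0.97 (SE) was not called (adjusted p = 0.633). Without wild-type replicate 2 it was 1.98 (adjusted p = 0.0023). At the dimmer MYB15 probe every wild-type value, that array's included, lay below every transgenic one, with 3.15%, 6.34%, 3.51% and 4.97% in 35S:MYB106VP16 against 0.935%, 1.68% and 0.723% in wild type, 4.14-fold higher (log2 2.05 ± 0.34 SE, adjusted p = 0.00217 in the fit over all probes). MYB60 (AT1G08810), which promotes stomatal opening from guard cells, stood at 73.5%, 79.5%, 43.7% and 56.1% in 35S:MYB106VP16 against 64.1%, 67.6% and 71.5% in wild type and was not called (adjusted p = 0.593). The abscisic acid regulator MYB2 stood at 6.10%, 8.36%, 8.31% and 18.02% in 35S:MYB106VP16 against 5.81%, 4.75% and 5.69% in wild type; the values did not overlap, yet the spread within 35S:MYB106VP16 left it uncalled (adjusted p = 0.0816).

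Among members that set cell identity in the epidermis, and among those of the stomatal lineage and root growth, 1 of 3 was lower in each group, 33.3% against 24.8% of all genes. MYB88 (AT2G02820), which with FLP stops division once the guard cell pair has formed, stood at 12.8%, 14.7%, 14.6% and 14.2% in 35S:MYB106VP16, against 26.6%, 29.9% and 29.98% in wild type, 2.04-fold lower (log2 -1.03 ± 0.08 SE, adjusted p = 0.000196). All 4 MYB88 probes were lower, with log2 changes of -0.83 to -1.15. MYB48 and MYB59, of the same group, were not called; MYB48 had a log2 change of 0.65 at an adjusted p of 0.0612, which passed the threshold without 35S:MYB106VP16 replicate 1 (0.041) or wild-type replicate 2 (0.00909). MYB0 (AT3G27920) is GLABRA1, the MYB activator of trichome initiation. It stood at 7.47%, 6.37%, 8.97% and 9.63% in 35S:MYB106VP16, against 11.9%, 15.9% and 13.8% in wild type, 1.72-fold lower (adjusted p = 0.00615). Its relatives MYB66, known as WEREWOLF, which specifies hairless root cells, and MYB82 had log2 changes of 0.07 and 0.10 and were not called.

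The bHLH partners of such MYB proteins were lower. Of 5 bHLH and WD40 partners 4 were lower and none was higher, against 24.8% and 28.1% of all genes. Their median log2 change was -0.79. TT8, the bHLH partner of flavonoid MYB proteins, stood at 0.876%, 0.690%, 0.667% and 0.850% in 35S:MYB106VP16, against 2.74%, 2.27% and 2.93% in wild type, 3.44-fold lower (log2 -1.78 ± 0.14 SE, adjusted p = 0.000168). EGL3, a partner of GLABRA1 and WEREWOLF, was 1.87-fold lower (adjusted p = 0.00263). GL3 and MYC1 had log2 changes of -0.79 and -0.72, both called, GL3 without a call when wild-type replicate 2 was left out (0.0545). TTG1, the WD40 protein that holds these complexes together, had a log2 change of -0.05 and was not called (adjusted p = 0.704).

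Of the members of subgroup 22, MYB77 (AT3G50060), which promotes lateral root growth with auxin response factors, stood at 139%, 149%, 174% and 159% in 35S:MYB106VP16, against 205%, 282% and 319.8% in wild type, 1.71-fold lower (log2 -0.77 ± 0.16 SE, adjusted p = 0.00557). Its relatives MYB70 and MYB73 had log2 changes of -0.03 and -0.02; that of MYB70 took the opposite sign, 0.09 and 0.18, with median scaling and in the authors' deposited table. The axillary meristem and organ boundary group gave 2 lower genes of 4 tested, 50% against 24.8% of all genes. MYB117 (AT1G26780), the boundary gene LOF1, was 1.64-fold lower (adjusted p = 0.0063), a call missed in the authors' deposited table (0.0709). MYB87 (AT4G37780) was 1.54-fold lower (log2 -0.62 ± 0.12 SE, adjusted p = 0.00397), while the axillary meristem regulators MYB37 and MYB84 were not called.

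Members known from reproductive tissue were mostly below detection in these seedlings. Of the GAMYB type, which mediates gibberellin signalling and is silenced by miR159 in vegetative tissue, 2 of 7 were tested. MYB33 (AT5G06100) stood at 24.6%, 26.5%, 23.6% and 23.97% in 35S:MYB106VP16, against 22.2%, 20.7% and 21.3% in wild type, 1.15-fold higher (adjusted p = 0.0463), and in the fit over all probes this probe was not called (0.0539). The dimmer MYB33 probe was 1.85-fold higher in that fit (log2 0.89 ± 0.14 SE, adjusted p = 0.0019), with no overlap between the genotypes. The call at the brighter probe was lost without any 1 of 35S:MYB106VP16 replicates 1, 2 and 4 and the 3 wild-type replicates (0.0531 to 0.151), and with spike-in scaling it was lower, with a log2 change of -0.39 (adjusted p = 0.0225). MYB65 had a log2 change of 0.12 ± 0.07 (SE), which was not called. CP1, a cysteine protease gene that serves as a readout of GAMYB activity, stood at 3.65%, 3.35%, 2.51% and 3.79% in 35S:MYB106VP16, against 14.99%, 16.2% and 11.6% in wild type, 4.29-fold lower (log2 -2.10 ± 0.18 SE, adjusted p = 0.000212). No probe matched the miR159 loci of its list.

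In the group of embryo sac, embryo and seed regulators 3 of 8 were tested. MYB25 (AT2G39880) was 1.46-fold lower (log2 -0.55 ± 0.11 SE, adjusted p = 0.00453) and its relative MYB109 (AT3G55730) 1.18-fold higher (adjusted p = 0.0234). MYB25 missed the threshold in the authors' deposited table (adjusted p = 0.116). MYB109 lost its call without wild-type replicate 2 or 3 (0.0933 and 0.0921) and was lower with spike-in scaling, with a log2 change of -0.35. MYB56, which limits stem cell division in the root, had a log2 change of -0.23 and was not called. Of 5 stamen, anther and pollen regulators only MYB99, active in the tapetum, was tested. Its values ran from 0.218% to 3.40% in 35S:MYB106VP16 and from 0.134% to 2.05% in wild type without a difference that the test could call (adjusted p = 0.798). Seed and pollen markers were detected in part, at 1 to 2 of 4 seed markers on transgenic arrays and 0 to 1 on wild-type arrays, and 0 to 2 of 4 tapetum and pollen markers against 1 to 3. AMS and A9 of the pollen list and CRA1 of the seed list were well above background on 5 of 7 arrays each, and VGD1 and SESA3 on none. CRA1 was detected on 4 transgenic arrays and 1 wild-type array and was called higher (log2 0.88, adjusted p = 0.00128). Its entry into the test rested mainly on the transgenic arrays. AMS, on 2 transgenic and 3 wild-type arrays, and A9, on 3 and 2, were not called. The floral organ markers, detected on nearly all arrays, had a summed level of 134% to 224% in 35S:MYB106VP16 against 89.7% to 201% in wild type. PI, a gene of petal and stamen identity, was higher (log2 1.18, adjusted p = 0.0102), and the other 4 were not called. The part of these tissues in the MYB values was not tested.

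Of the phosphate and iron regulators 2 of 4 were tested. MYB62 (AT1G68320), induced by phosphate starvation, was 1.43-fold higher (adjusted p = 0.048) with overlapping values near the limit of detection. That call was lost without any 1 of 35S:MYB106VP16 replicates 2, 3 and 4 and wild-type replicates 2 and 3 (0.0636 to 0.164), and its log2 change was -0.08 with spike-in scaling. Phosphate starvation genes went both ways, with 1 of 5 tested higher and 2 lower, against 28.1% and 24.8% of all genes. PS2, a phosphatase gene, was 2.14-fold higher (adjusted p = 0.0324), a call lost without any 1 of 35S:MYB106VP16 replicates 1 and 2 and the 3 wild-type replicates (0.0507 to 0.103). SQD2, which makes sulfolipid, was 1.58-fold lower (adjusted p = 0.00156).

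MYB10, which with MYB72 activates the nicotianamine synthase gene NAS4, had a log2 change of 0.29 that was not called (adjusted p = 0.124) and was -0.30 with spike-in scaling. MYB72 stayed below that limit on every array. Among 7 iron deficiency genes 3 were higher and none was lower, against 28.1% and 24.8% of all genes. BHLH100, a bHLH regulator induced by iron deficiency, stood at 7.53%, 13.3%, 16.7% and 14.9% in 35S:MYB106VP16, against 2.83%, 4.07% and 3.00% in wild type, 3.86-fold higher (log2 1.95 ± 0.28 SE, adjusted p = 0.00126). BHLH38 was 2.01-fold higher (adjusted p = 0.00123) and NAS4 1.86-fold higher (adjusted p = 0.000561), whereas the iron master regulator FIT had a log2 change of -0.07 and was not called.

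Members placed in none of these roles included several of the larger rises. MYB305 (AT3G24310), also known as MYB71, stood at 11.3%, 17.1%, 15.1% and 19.5% in 35S:MYB106VP16, against 5.51%, 6.11% and 4.69% in wild type, 2.86-fold higher (log2 1.51 ± 0.19 SE, adjusted p = 0.000765). MYB89 (AT5G39700), a repressor of seed oil accumulation, was well above background in 35S:MYB106VP16 alone, at 1.20%, 1.15%, 0.654% and 0.696%, against 0.467%, 0.223% and 0.230% in wild type, at least 1.74-fold higher (adjusted p = 0.00553). It entered the test through the transgenic arrays alone, so this p adds no support to its direction. With normexp background correction it was not called (0.0871). MYB40 (AT5G14340) was 2.43-fold higher (adjusted p = 0.0224), with 1.93%, 1.98%, 3.98% and 5.16% in 35S:MYB106VP16 against 1.28%, 1.45% and 0.992% in wild type. Its call was lost without any 1 of 35S:MYB106VP16 replicate 3 and wild-type replicates 1 and 3 (0.0523 to 0.0795), and its other probe was not called, with a log2 change of 0.58.

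MYB genes outside the R2R3 type were read for comparison. Of 6 tested genes with 3 or 4 repeats or of the CDC5 type, 2 were lower and none was higher. The shares of all genes were 24.8% and 28.1%, and the median log2 change of these 6 was 0.01. MYB3R4, an activator of genes of mitosis, was 1.51-fold lower (adjusted p = 0.00129), and MYB3R1 was 1.29-fold lower (adjusted p = 0.0118).

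Where several probes read 1 gene, they did not always give the same answer. Of 22 members with several probes, 15 had more than 1 tested, and 9 of these had the same call at every tested probe. In 11 of the 15 all probes had the same sign, and no member had probes called in opposite directions. The 26 members that were not tested comprised 17 with no array well above background and 9 with 1 or 2 such arrays.

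**Figure D4:**
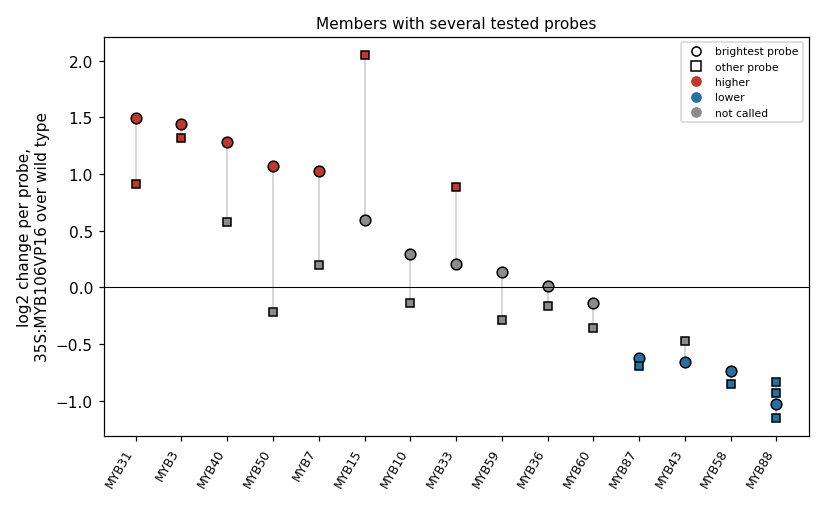
Log2 change, 35S:MYB106VP16 over wild type, of each tested probe of the 15 members with several tested probes, from the fit over all probes. Each point is a probe and its colour the call in that fit; the 4 MYB88 probes lie together below 0, while the probes of MYB7, MYB15 and MYB50 lie apart.

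Of the 38 calls among the members, 9 were kept under every alternative processing tried and without each array in turn. The 6 higher genes were MYB3, MYB4, MYB31, MYB32, MYB78 and MYB305, and the 3 lower ones were MYB54, MYB88 and MYB95. The test against 1.5-fold, which asks for more than a change of any size, by itself kept 10 of the 38. Under every scaling and background alternative, 9 higher and 10 lower calls were kept.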

How the data were processed

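RNA from 4 35S:MYB106VP16 and 3 wild-type samples was read on single-colour Agilent arrays. Per the file headers, the deposited intensity values were background-subtracted and spatially detrended by Agilent Feature Extraction 9.1.3.1. No source used here names a genome build. A second deposited table of intensity values by the authors proved to be the same signals, each array divided by a constant that was equal within a genotype.

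From these, log2 signals minus each array's 75th percentile were tested for genotype with limma 3.58.1 (R 4.3.3), without control spots and outlier flags; the code was tested on simulated data. Probes were named through RefSeq accessions: 34185 of 36022 accession-named probes matched, and the others were left unnamed. A gene was read by its probe with the highest mean, and different probes of a gene were fitted separately as a check. A gene not above background in 1 genotype has a bound, the mean of the bright group over the lowest signal well above background. Intervals and errors cover these arrays alone, whose number limits the precision.

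Members, role groups and lists were chosen with earlier results of these data known. The genes named were the 15 strongest rises and as many falls among called members without overlap, the 2 largest changes of each role group, those detected in 1 genotype only, and the 2 largest called changes of each list; MYB members and list genes beyond these were chosen after their values were seen. Alternatives were normexp background correction (offset 50), quantile, median and spike-in scaling, the authors' table, other filters and probe rules, a replicate block, a test against 1.5-fold and leaving out each array. Protein and promoter sequences were not used here.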

Additional observations from a re-analysis of the deposited data

Results flagged for a closer look

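Among 73 values tested for a transgenic array that stood far from the other 3, 2 were found, and chance finds about 1 in 20. Both concerned replicate 4 of 35S:MYB106VP16: VND7 had a log2 level of -4.31 there, where the other 3 transgenic arrays had -4.65 to -4.60, and MYB3R1 had -3.29, where the others had -3.02 to -2.98. Both genes were lower than in wild type on all 4 transgenic arrays.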

How the results depend on the processing

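Several counts of members moved by more than 1.5 times. Of the 16 higher and 22 lower members, spike-in scaling gave 10 and 41, the test against 1.5-fold 6 and 4, and the authors' values 12 lower. Of the 11 members at least 2-fold higher and 6 at least 2-fold lower, normexp gave 5 and 2, spike-in scaling 5 and 22, the test against 1.5-fold 6 higher, and the authors' values 3 lower. Without each array in turn, 11 to 18 members were higher, 17 to 22 lower, 8 to 12 at least 2-fold higher and 4 to 7 at least 2-fold lower.

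Of the lists, the higher wall regulator was lost with spike-in scaling and the test against 1.5-fold (0 each), 3 were higher without a filter, and 0 to 1 without an array; 1 was lower by the test against 1.5-fold. That test left 1 lower bHLH or WD40 partner, 1 higher iron gene, 2 lower wall genes, and 0 lower of the phosphate and three-repeat lists. Spike-in scaling gave 1 higher and 2 lower iron genes and 6 lower genes of the three-repeat list. Phosphate genes had 0 higher with spike-in scaling, the test against 1.5-fold and the mean over probes, 0 to 1 without an array, and 1 lower in the authors' table. With median scaling 2 wall genes and 1 three-repeat gene were higher, and in the authors' values 1 three-repeat gene was; 1 three-repeat gene was lower with normexp, median scaling and the authors' table.

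Signs reversed for 10 named genes with small or uneven changes. With spike-in scaling the log2 changes were -0.30 for MYB10, -7.4e-06 for MYB15, -0.39 for MYB33, -0.15 for MYB52, -0.0776 for MYB62, -0.47 for MYB65, -0.49 for MYB82, -0.20 for MYB99 and -0.35 for MYB109. MYB70 gave 0.092 with median scaling and 0.18 in the authors' table, and MYB82 gave -0.0572 with normexp and -0.0642 with the replicate block. Without each array in turn the log2 change ran from -0.15 to 1.98 for MYB15, from -0.0865 to 0.0868 for MYB70, from -0.0642 to 0.31 for MYB82 and from -0.72 to 1.248 for MYB99. Spike-in scaling, median scaling and the authors' table shift the log2 change of every gene by the same amount. The median of all genes moved from 0.02 to -0.57, 0.14 and 0.23 in that order. Under these settings the reversed signs are therefore those of changes smaller than the shift. The cause of the other reversals was not tested. Replicate numbers did not pair the arrays, with correlations of deviations of 0.18, -0.03 and -0.08 between same-numbered arrays; with the replicate block 12 members were higher and 18 lower. The slide block was not run, since each slide held 1 genotype. Signal near background limits MYB39, MYB42, MYB62 and MYB89.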

Other observations

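Some members outside the test were bright on 1 array only. MYB100 stood at 3.01% of the 75th percentile on 35S:MYB106VP16 replicate 3 and at no more than 0.146% on any other array. MYB24, a stamen regulator, stood at 2.25% on 35S:MYB106VP16 replicate 2 and at no more than 0.209% elsewhere, and MYB22 stood at 2.88% on wild-type replicate 2 and at no more than 0.171% elsewhere.

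The transgenic arrays did not share the highest values evenly. Replicate 1 of 35S:MYB106VP16 was the highest of the 4 for 2 of the 70 tested members, 2.86%, against 16.2% of all genes. Replicate 4 was the highest for 8 of 13 stress and guard cell members, 61.5%, and for 8 of 12 wall members, 66.7%, against 35.0% of all genes.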
